A study of Mus musculus with 2 samples.

Results

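Resident macrophages of the mouse abdominal cavity carry a recognisable set of transcripts, and 10 of these genes were followed here: Gata6, Cebpb, Bhlhe40, Adgre1, Icam2, Vsig4, Cd5l, Serpinb2, Prg4 and Lbp. They were taken by name as genes of large peritoneal macrophages and looked up by Ensembl identifier among the 55487 gene identifiers of the count table. All 10 were found, and all 10 reached 50 counts in at least 1 library. The libraries were of small peritoneal macrophages sorted during endotoxemia from outbred SWISS mice, all males aged 5 weeks. Every mouse had received 20 mg/kg lipopolysaccharide (LPS, from Escherichia coli) into the peritoneum, then 30 mL/kg saline under the skin 6 h later, and was killed at 22 h. The LPS+LCC-12 library held 66967 sorted cells pooled from 8 mice that were also given 0.3 mg/kg LCC-12, a compound known to target copper in mitochondria, at 6 h. The LPS library held 102283 sorted cells pooled from 7 mice that got LPS without LCC-12. Each group was thus 1 library of pooled mice, and no mice without LPS were analysed here. No difference below was tested against variation between mice, and intervals are 95% limits of counting error only.

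The abdominal cavity of mice holds large and small macrophages. Large peritoneal macrophages are long-lived, carry much F4/80 and little MHC class II, and depend on the transcription factor GATA6, whose gene is switched on by retinoic acid made in the surrounding tissue. Small peritoneal macrophages come from blood monocytes, carry more MHC class II and less F4/80, and become more numerous in inflammation, when large cells become hard to recover from the cavity fluid. Some of the 10 genes are also known from other cells: Gata6 and Prg4 from mesothelium, Icam2 from endothelium and platelets, Lbp from hepatocytes, and Cebpb and Bhlhe40 from many activated leukocytes.

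Of the identity genes, Cd5l and Serpinb2 had the highest ratios of LPS+LCC-12 over LPS and Cebpb the lowest. Upstream sequence is shown for these 3 genes because it lets the letters known for binding by GATA and C/EBP factors, the families of Gata6 and Cebpb, be seen in place. Windows from the RefSeq promoter table (GRCm38.p6) were examined for 4 of the 10 genes, namely Cd5l, Serpinb2, Vsig4 and Cebpb. That the other identity genes were not examined does not mean that the table lacks an entry for each of them. Each line gives the 250 bases before an annotated start site, 5′ to 3′ on the strand of the gene. Capitals mark a GATA word (AGATAA, also with T as its first letter, G as its last, or both) or the C/EBP word TTGCNNAA, on either strand. No marked words overlap.
Cd5l, chr3:87357631-87357880, + strand: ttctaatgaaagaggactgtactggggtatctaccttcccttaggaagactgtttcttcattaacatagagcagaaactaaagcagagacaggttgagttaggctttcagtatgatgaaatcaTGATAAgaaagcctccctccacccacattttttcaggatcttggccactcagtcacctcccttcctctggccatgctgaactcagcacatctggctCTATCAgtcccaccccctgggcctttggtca
Serpinb2, chr1:107511173-107511422, + strand: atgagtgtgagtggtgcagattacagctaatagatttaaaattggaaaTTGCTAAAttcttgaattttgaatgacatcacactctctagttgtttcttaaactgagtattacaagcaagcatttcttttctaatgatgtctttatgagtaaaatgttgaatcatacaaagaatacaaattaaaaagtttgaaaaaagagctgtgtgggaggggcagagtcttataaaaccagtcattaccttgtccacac
Cebpb, chr2:167688665-167688914, + strand: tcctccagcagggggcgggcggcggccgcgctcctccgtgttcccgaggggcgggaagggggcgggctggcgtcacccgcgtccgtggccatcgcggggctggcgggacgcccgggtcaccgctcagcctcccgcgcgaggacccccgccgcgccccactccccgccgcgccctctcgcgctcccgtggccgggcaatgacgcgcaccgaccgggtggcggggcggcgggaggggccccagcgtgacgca
The Cd5l window held GATA words beginning 127 and 31 bases before the start site, the second of them on the opposite strand, and no C/EBP word. The Serpinb2 window held the C/EBP word TTGCTAAA, beginning 202 bases before the start site, and no GATA word. A second annotated Serpinb2 window, which overlaps the first, held AGATAA 41 bases and a C/EBP word 19 bases before its own start site. The Cebpb window held neither and was 81.6% G and C, against 46.8% for Cd5l and 32.4% for the first Serpinb2 window. The Vsig4 window held neither. Over all 32851 windows of 250 bases in the table, 26.5% held a GATA word and 9.56% the C/EBP word. The E-box CACGTG, known for binding by BHLHE40, was in 6.02% of windows and in none of these 5. These are matches of letters and do not show that a factor binds.

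The libraries held 47721888 counts for LPS+LCC-12 and 50618409 for LPS. Mitochondrial genes made up 7.86% of counts with LPS+LCC-12 and 6.99% with LPS, and the 100 most abundant genes 32.4% with LPS+LCC-12 and 31.3% with LPS. A minimum of 50 counts in whichever library was higher left 13482 genes, of which 4.01% were higher by 2-fold or more in the LPS+LCC-12 library and 6.65% lower by as much, with a median log2 ratio of 0.02. Here a ratio is always LPS+LCC-12 over LPS after TMM scaling of the counts. Of the 10 identity genes, 5 were higher with LCC-12 by 2-fold or more, none was lower by 2-fold, and the remaining 5 differed by less. Their median log2 ratio was 0.82, from -0.24 for Cebpb to 4.47 for Cd5l, and 8 of the 10 ratios were above 0. The 5 genes past 2-fold were Cd5l, Serpinb2, Vsig4, Prg4 and Icam2. The identity genes were chosen with earlier results of these data known, so the count past 2-fold is not independent of those results. Both libraries are from pooled cells, so more cells of a type and more RNA per cell cannot be told apart.

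**Figure D1:**
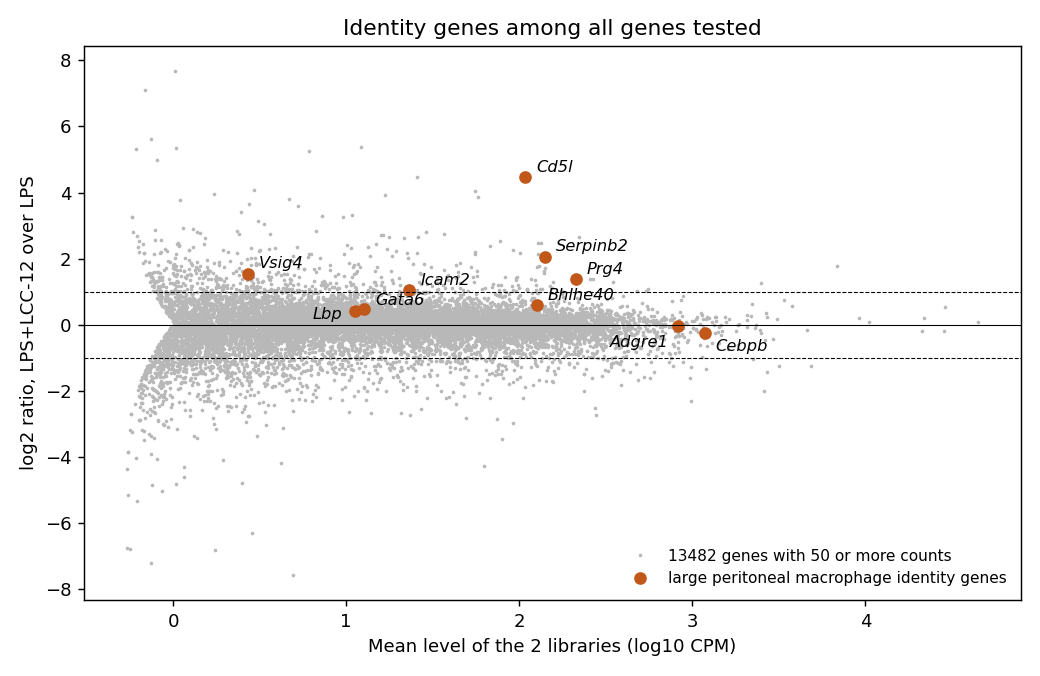
Log2 ratio (LPS+LCC-12 over LPS) against mean level (log10 CPM) for the 13482 genes that reached 50 counts in either library (grey) and the 10 identity genes (orange), with dashed lines at 2-fold. Cd5l, Serpinb2, Prg4, Vsig4 and Icam2 lie above the upper dashed line, and no identity gene lies below the lower one.

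Among the transcription factors, Gata6 and Bhlhe40 were higher with LCC-12 by less than 2-fold, and Cebpb was slightly lower. Gata6, which directs the large peritoneal macrophage program, lies on chromosome 18 from 11052064 to 11085635 (GRCm38, the same assembly as mm10). It had 720 counts with LPS+LCC-12 and 529 with LPS, a log2 ratio of 0.49 (0.33 to 0.66). Its level was among the lowest of the set in both libraries, at 2.29 scaled counts (CPM) per kilobase of exon with LPS+LCC-12 and 1.63 with LPS. The transcript 1010001N08Rik, on the other strand, shares 93 exon bases with Gata6 and had 45 counts with LPS+LCC-12 and 67 with LPS, so reads on those bases could be of either gene.

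Bhlhe40, a basic helix-loop-helix repressor that large peritoneal macrophages of mice need for their proliferation, lies on chromosome 6 from 108660629 to 108666925. It had 7335 counts with LPS+LCC-12 and 4998 with LPS, 1.52-fold higher (log2 ratio 0.60, 0.55 to 0.65). Its paralog Bhlhe41 had 178 counts with LPS+LCC-12 and 107 with LPS and a log2 ratio of 0.78 (0.43 to 1.14). Cebpb, a leucine zipper factor without which mice lack large peritoneal macrophages and which inflammatory signals induce in many cells, is a gene of 1 exon on chromosome 2 from 167688915 to 167690418. It had 52357 counts with LPS+LCC-12 and 63894 with LPS, 1.18-fold lower (log2 ratio -0.24, -0.26 to -0.22). It was the most abundant identity gene per kilobase of exon, at 720 CPM per kilobase with LPS+LCC-12 and 851 with LPS. Of its exon, 312 bases are shared with Tmem189 on the other strand, which had 2838 counts with LPS+LCC-12 and 2988 with LPS.

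None of the related C/EBP genes was past 2-fold with TMM scaling. The 6 genes of that list had a median log2 ratio of -0.11, from -0.98 for Ddit3, an inducible stress factor with 814 counts with LPS+LCC-12 and 1663 with LPS (-1.02 under the upper quartile scaling, past 2-fold), to 0.84 for Cebpe. Cebpa, the factor of early myeloid commitment, had 0.47 with 6894 counts with LPS+LCC-12 and 5145 with LPS. Of the other GATA factors, Gata4 had 0 counts in both libraries and Gata2, the one with the most counts, had 30 with LPS+LCC-12 and 26 with LPS. Zfpm1, a GATA cofactor, had 354 counts with LPS+LCC-12 and 218 with LPS and a log2 ratio of 0.74 (0.50 to 1.00).

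Among the surface proteins, Adgre1 was nearly equal in both libraries, whereas Icam2 and Vsig4 were higher with LCC-12 by 2-fold or more. Adgre1 encodes F4/80, the adhesion receptor by which mouse macrophages are commonly sorted, and lies on chromosome 17 from 57358691 to 57483527. It had 39897 counts with LPS+LCC-12 and 41890 with LPS (log2 ratio -0.02, -0.04 to -0.0044), and its sign depended on the scaling. Icam2, an adhesion molecule used with F4/80 to identify large peritoneal macrophages, lies on chromosome 11 from 106377656 to 106388075. It had 1513 counts with LPS+LCC-12 and 755 with LPS, 2.07-fold higher with an interval of 1.89-fold to 2.26-fold that includes 2-fold. Vsig4, a complement receptor for C3 fragments on resident macrophages, lies on chromosome X from 96247203 to 96293438. It had 195 counts with LPS+LCC-12 and 69 with LPS, 2.90-fold higher (2.21-fold to 3.90-fold), and is the identity gene with the fewest counts.

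Genes of the known binding partners of Icam2 and Vsig4 products were near 0 or lower. The integrin chains known to bind ICAM2, Itgal and Itgb2, had log2 ratios of -0.54 and 0.03, and Itgam had -0.21. C3, the source of the VSIG4 ligand, had 70525 counts with LPS+LCC-12 and 149755 with LPS, 2.06-fold lower (log2 ratio -1.04, and -0.98 under the scaling that moved it most, which is within 2-fold). Adgre4, a relative of Adgre1, had 4190 counts with LPS+LCC-12 and 2006 with LPS and was 2.16-fold higher, whereas Adgre5, which encodes CD97, had a log2 ratio of -0.20. Icam1, the inflammation-induced relative of Icam2, had 5815 counts with LPS+LCC-12 and 8308 with LPS and a log2 ratio of -0.47 (-0.52 to -0.42).

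The 4 genes of secreted or released proteins spanned the widest range, from Cd5l to Lbp. Cd5l, a secreted scavenger protein carried in blood with IgM (chromosome 3, 87357881 to 87371073), had 10022 counts with LPS+LCC-12 and 466 with LPS. It was 22.2-fold higher (20.2-fold to 24.4-fold), rank 9 of the 13482 genes by ratio. Its level with LCC-12 was 102 CPM per kilobase of exon, below only Cebpb and Adgre1 among the identity genes, against 4.58 with LPS, where it was also below Prg4, Serpinb2, Bhlhe40 and Icam2. Serpinb2, known as plasminogen activator inhibitor 2 (chromosome 1, 107511423 to 107535478), had 10932 counts with LPS+LCC-12 and 2720 with LPS, 4.15-fold higher (3.98-fold to 4.33-fold). Prg4, the lubricating glycoprotein lubricin, lies on chromosome 1 from 150449412 to 150466165. It had 14816 counts with LPS+LCC-12 and 5911 with LPS, 2.59-fold higher (2.51-fold to 2.67-fold). These 3 genes had similar levels per kilobase with LCC-12, at 102, 96.2 and 71.6 CPM for Cd5l, Serpinb2 and Prg4, and with LPS those of Serpinb2 and Prg4 were 23.2 and 27.7.

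Lbp, which carries LPS to CD14 for sensing by TLR4 and MD-2, lies on chromosome 2 from 158306493 to 158332852. It had 624 counts with LPS+LCC-12 and 486 with LPS, a log2 ratio of 0.41 (0.23 to 0.58) within 2-fold. The genes of the sensing complex were within 2-fold as well, with log2 ratios of -0.37 for Cd14, 0.12 for Tlr4 and -0.39 for Ly96, which encodes MD-2. In the Lbp family only Pltp, the phospholipid transfer protein, had 50 or more counts; it had 13579 counts with LPS+LCC-12 and 8216 with LPS and a log2 ratio of 0.77.

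Genes that act with the other secreted proteins were mixed. In plasminogen activation, which Serpinb2 restrains, the urokinase gene Plau had 672 counts with LPS+LCC-12 and 340 with LPS and was 2.04-fold higher (log2 ratio 1.03, and 0.99 under the scaling that moved it lowest, which is within 2-fold). Its receptor Plaur had a log2 ratio of -0.08, and Serpine2 was 2.60-fold lower with 44 counts with LPS+LCC-12 and 119 with LPS. The known PRG4 receptors Cd44 and Tlr2 had log2 ratios of 0.21 and -0.48. Cd36, known for the uptake of CD5L protein, had 18517 counts with LPS+LCC-12 and 3019 with LPS, 6.33-fold higher, and Ighm, the IgM heavy chain, had 0.13. Among scavenger receptors that share the cysteine-rich domain of CD5L, Cd163 was 5.57-fold higher, and Marco and Msr1 had log2 ratios of 0.44 and 0.30.

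**Figure D2:**
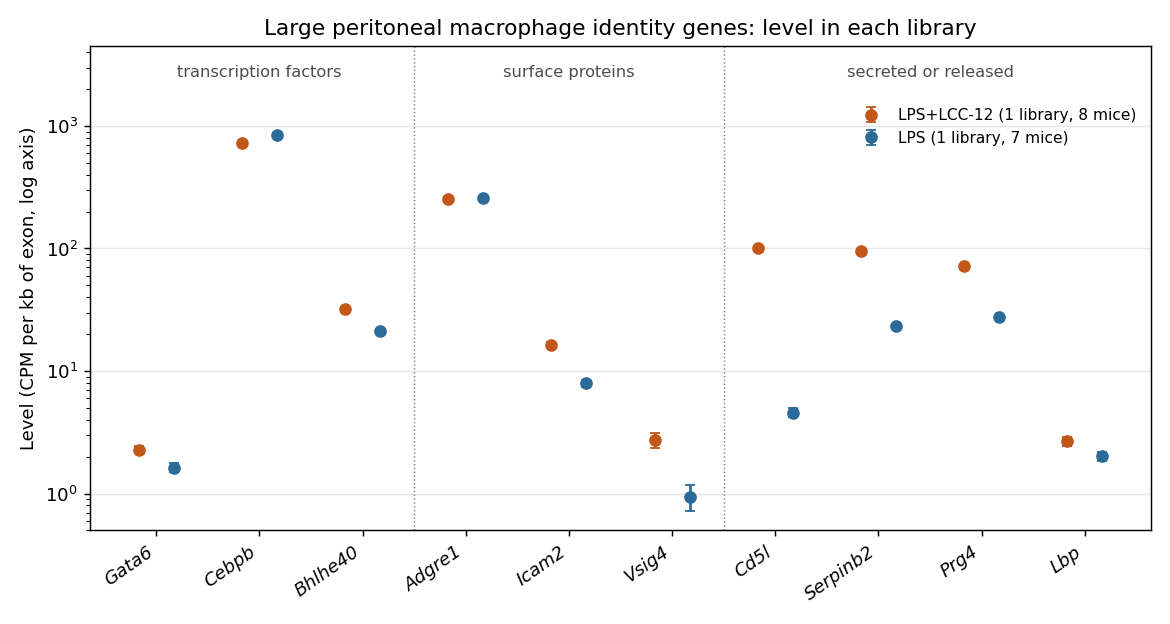
Level of each identity gene in the LPS+LCC-12 library (orange) and the LPS library (blue), as CPM per kilobase of exon on a log axis; bars are 95% counting limits and often smaller than the points. The gap is widest for Cd5l, at 102 with LPS+LCC-12 and 4.58 with LPS, and Adgre1 is nearly level, at 255 with LPS+LCC-12 and 259 with LPS.

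The order of the levels per kilobase of exon differed between the libraries mainly through Cd5l. With LPS+LCC-12 it ran Cebpb, Adgre1, Cd5l, Serpinb2, Prg4, Bhlhe40, Icam2, Vsig4, Lbp and Gata6, from 720 to 2.29 CPM per kilobase. The counting limits of Vsig4 overlapped those of Lbp and of Gata6 there. With LPS it ran Cebpb, Adgre1, Prg4, Serpinb2, Bhlhe40, Icam2, Cd5l, Lbp, Gata6 and Vsig4, from 851 to 0.931 CPM per kilobase, with no overlap of counting limits between neighbours. The exon length used merges all annotated transcripts, so a gene with long rare exons is set too low.

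Set against Adgre1 in the same library, a measure that no scaling can move, the differences were of similar size. That follows from Adgre1 being nearly equal in both libraries after TMM scaling, so it is no separate check of the ratios. For each 1000 Adgre1 counts there were 251 Cd5l counts with LPS+LCC-12 and 11.1 with LPS. Serpinb2 had 274 with LPS+LCC-12 and 64.9 with LPS, Prg4 had 371 with LPS+LCC-12 and 141 with LPS, and Icam2 had 37.9 with LPS+LCC-12 and 18.0 with LPS. Gata6 had 18.0 counts per 1000 Adgre1 counts with LPS+LCC-12 and 12.6 with LPS.

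**Figure D3:**
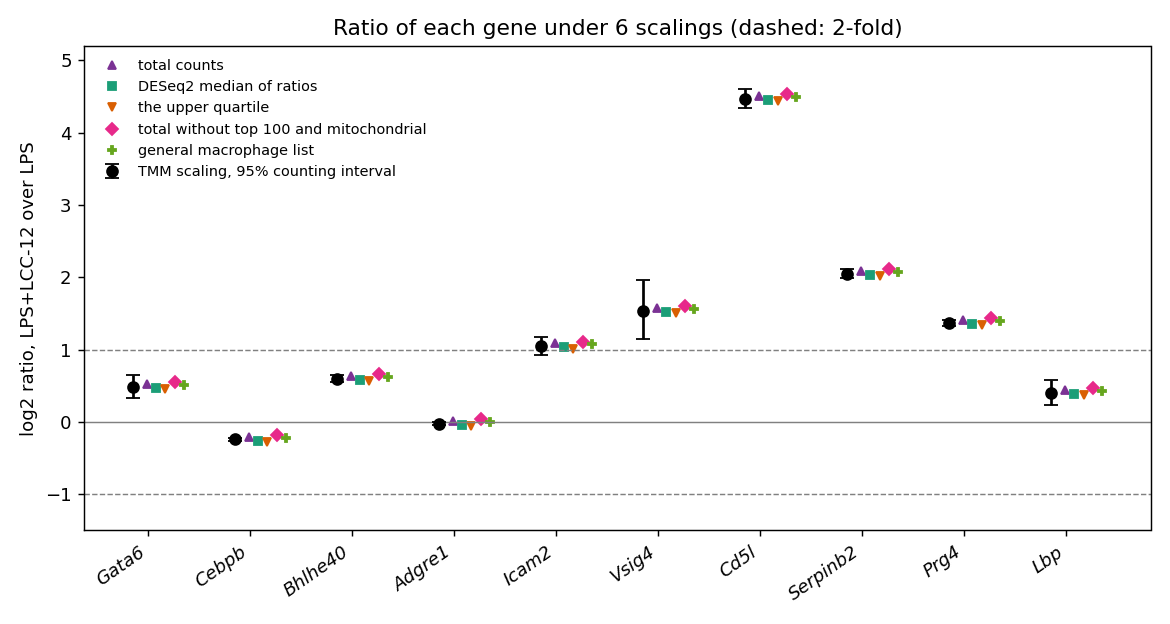
Log2 ratio (LPS+LCC-12 over LPS) of each identity gene with TMM scaling (black, bars are 95% counting limits) and under 5 other scalings (coloured), dashed lines at 2-fold. The scalings move all genes together by at most 0.06, and only Adgre1 lies on both sides of 0.

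Other genes known from large peritoneal macrophages, outside the set of 10, were counted as well. Of 14, 6 were higher with LCC-12 by 2-fold or more, 0 were lower and 8 differed by less. Their median log2 ratio was 0.85. Over all genes with enough counts, 4.01% were higher by 2-fold or more. Ltbp1, 1 of the 6, had a log2 ratio of 1.06 (0.97 to 1.15), an interval that includes 2-fold. Cxcl13, at 0.953, was within 2-fold with TMM scaling. The scaling that leaves out mitochondrial genes and the 100 most abundant ones moved all ratios by 0.060, which puts Cxcl13 past 2-fold. Timd4, a receptor for phosphatidylserine on dying cells, had 5056 counts with LPS+LCC-12 and 318 with LPS and was 16.4-fold higher. Alox15, a lipoxygenase, and Tgfb2, a growth factor gene that depends on GATA6, were 3.09-fold and 2.64-fold higher. Thbs1, Selp and Aspa had ratios below 0, at -0.61, -0.24 and -0.10, although Aspa is also known as a GATA6-dependent gene. Several of these genes, Timd4 and Alox15 among them, were already known to be higher in these libraries when the list was made.

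Retinoic acid is known to act upstream of Gata6. Of 10 genes of the retinoid pathway with enough counts, 4 were at least 2-fold higher and 0 lower, with a median log2 ratio of 0.52. The share of all genes higher by as much was 4.01%, and this list too was chosen with earlier results of these data known. Aldh1a2, an enzyme that makes retinoic acid, had 1217 counts with LPS+LCC-12 and 230 with LPS, 5.45-fold higher. The receptor gene Rarb, itself inducible by retinoic acid, had 1771 counts with LPS+LCC-12 and 405 with LPS and was 4.51-fold higher. Rarb is also among the other large peritoneal macrophage genes counted above as past 2-fold, so the counts of these lists overlap. Rarg was 2.08-fold higher (log2 ratio 1.05, 0.98 to 1.12). Cyp26b1, which degrades retinoic acid, was 2.94-fold higher on 55 counts with LPS+LCC-12 and 19 with LPS (log2 ratio 1.55, 0.80 to 2.41). The intervals of Rarg and Cyp26b1 both include 2-fold. Rara, Rxra and Rxrb, the broadly expressed receptors, had log2 ratios of -0.08, 0.38 and 0.17. The other 8 genes of the list had fewer than 50 counts in both libraries.

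Most genes of small peritoneal and monocyte-derived macrophages were also higher with LCC-12. Of 16 such genes with enough counts, 11 were at least 2-fold higher and 0 lower, with a median log2 ratio of 1.34. Over all genes with enough counts, 4.01% were higher and 6.65% lower by as much. This list too was chosen with earlier results of these data known, so its count is not independent of them. Retnla, Cd226, Cx3cr1 and Irf4, genes of cavity macrophages of monocyte origin, were 6.34-fold, 6.26-fold, 5.05-fold and 4.68-fold higher. Ccr2, the monocyte chemokine receptor that marks the labelled cell type, had 17434 counts with LPS+LCC-12 and 18229 with LPS. Both the marker genes of the labelled small cells and those of large cells were therefore present in both libraries, and the gate used for the sort is not given in the sources used here. The 12 genes common to macrophages all differed by less than 2-fold, with a median of -0.02, from -0.37 for Cd14 to 0.56 for Lyz2. Among 16 macrophage transcription factors, Irf4 and Klf4 (2.16-fold) were at least 2-fold higher, Spic was 2.14-fold lower on 36 counts with LPS+LCC-12 and 80 with LPS, and the median was 0.12.

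**Figure D4:**
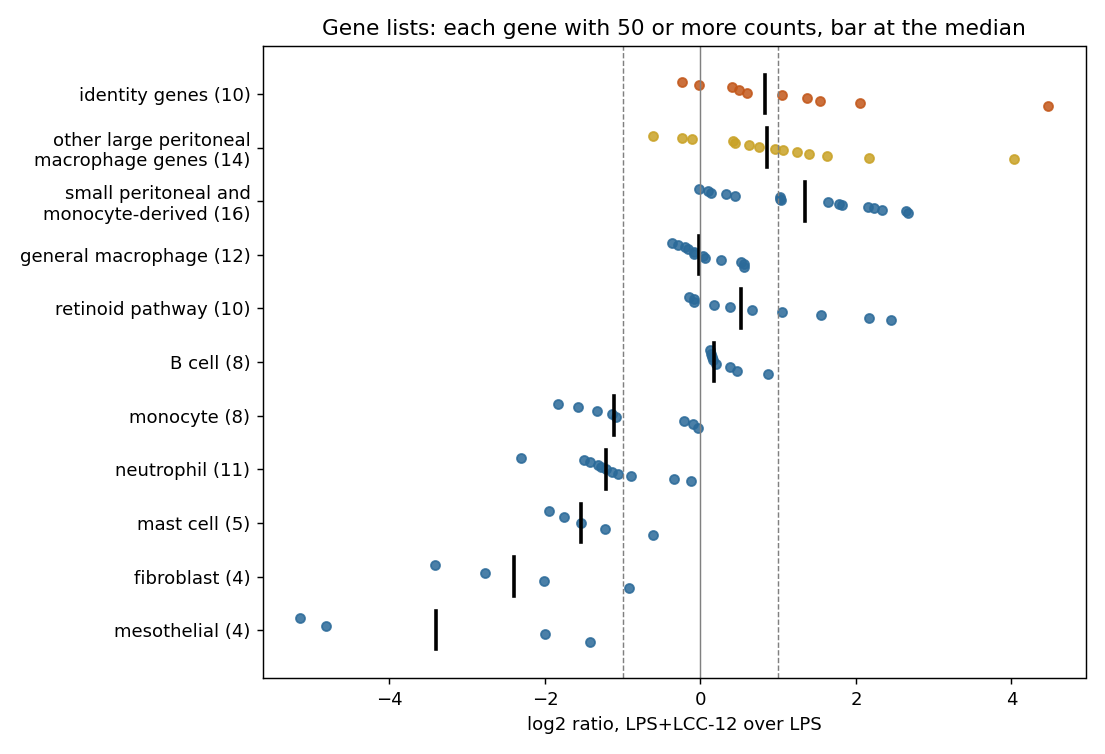
Log2 ratio (LPS+LCC-12 over LPS) of every gene that reached 50 counts in either library in selected gene lists, with the number of genes in brackets and a black bar at the median. Lists not shown include platelet, endothelial, eosinophil, dendritic, T and NK, and macrophage transcription factor genes. Both peritoneal macrophage lists and the identity genes have medians above 0, general macrophage genes sit near 0, and monocyte, neutrophil, mast cell, fibroblast and mesothelial markers lie below 0.

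Markers of other cells were summed in each library, and some of these sums differed between the libraries. The 9 mesothelial markers summed to 68 counts with LPS+LCC-12 and 409 with LPS, that is 1.41 CPM with LPS+LCC-12 and 8.19 CPM with LPS, with Msln at 1 count with LPS+LCC-12 and 12 with LPS and Wt1 at 0 counts with LPS+LCC-12 and 8 with LPS. Gata6 and Prg4, known from mesothelium too, thus had more counts in the library with fewer mesothelial marker counts. The 6 endothelial markers, for cells known to carry Icam2, summed to 149 counts with LPS+LCC-12 and 118 with LPS. The 6 platelet markers summed to 145 CPM with LPS+LCC-12 and 69.6 CPM with LPS, nearly all of it Pf4, also known from macrophages and 2.57-fold higher, whereas Tubb1 (2.60-fold) and Itgb3 (2.73-fold) were lower. The 4 hepatocyte markers summed to 3 counts with LPS+LCC-12 and 0 with LPS, so the defining genes of the main known source of Lbp were at or near 0. The 11 neutrophil markers summed to 3514 CPM with LPS+LCC-12 and 9298 with LPS, with 8 at least 2-fold lower. Of the 8 monocyte markers, 5 were at least 2-fold lower and none had a ratio above 0. Mast cell and fibroblast markers were lower too, with 4 of 5 and 3 of 4 genes past 2-fold, and their sums were 5.54 and 3.64 CPM with LPS+LCC-12 against 15.5 and 12.4 CPM with LPS. Over all genes with enough counts, 6.65% were lower by 2-fold or more. The median of the 8 B cell markers was 0.18. T and NK, dendritic and eosinophil markers summed to 2.23, 5.00 and 1.98 CPM with LPS+LCC-12 and to 3.92, 5.57 and 1.56 CPM with LPS. The part of these cells in the ratios of the identity genes was not tested.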

How the data were processed

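RNA of sorted small peritoneal macrophages was sequenced as 1 pooled library per group, with total counts of 47721888 (LPS+LCC-12) and 50618409 (LPS). What was deposited is 1 table of raw, unnormalized counts for each gene. Reads were aligned with STAR to mm10, per the submitters' processing notes, and how they were counted, with or without strand, is not given in the sources used here. Columns were tied to groups by library codes in the labels. Symbols, positions and exon lengths came from GENCODE M21 (GRCm38), which matched 55394 of the 55487 identifiers. Ddit3 matched 2 identifiers and the one with counts was used.

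Library sizes were scaled by TMM (edgeR 4.0.16, R 4.3.3), and ratios include 0.5 added counts weighted by scaled size. Genes were called at 2-fold, given 50 counts in either library. No test was possible with 1 library a group. Ratios have exact 95% binomial (Clopper-Pearson) intervals and levels exact Poisson intervals. PCR reads are not independent molecules, so these cover counting error only. The ratio and interval were checked on simulated counts that held counting error alone, so this check does not cover variation between mice or libraries. Of 33 lists, the text names the genes past 2-fold with the largest ratios (up to 4), or the 2 with most counts, and any partner gene except 1 that is not reported here; a few other list genes (Cebpa, Cebpe, Ddit3, Gata2, Gata4, Bhlhe41, Adgre5, Marco, Msr1, Thbs1, Selp, Aspa, Rara, Rxra, Rxrb, Ccr2, Serpinb1a, Serpinb9, Msln and Wt1) were chosen after their values were seen. The identity genes and lists were chosen with earlier results of these data known. Alternatives were 5 scalings, among them DESeq2 1.42.0 median of ratios, 3 count minimums, 5 added counts, 3 size rules and the mean.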

Additional observations from a re-analysis of the deposited data

How the results depend on the processing

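The count of 5 identity genes at least 2-fold higher was also 5 under all 5 other scalings, with count minimums of 1 and 10 and with 5 added counts, and the count of 0 lower genes was 0 under every alternative tried. The first count was 4 with a minimum of 200 counts, which leaves out Vsig4, and 4 when the whole interval had to lie beyond 2-fold, which leaves out Icam2. It was 6 at 1.5-fold and 2 at 3-fold. The share of all genes was computed only at 2-fold with 50 counts, where 4.01% were higher. The counts under the other rules thus have no share of all genes to be set beside. The median log2 ratio of 0.82 was 0.79 to 0.88 under the other scalings, 0.60 with the minimum of 200 counts and 1.17 as a mean, where Cd5l weighs most. Of 50 single ratios recomputed under the other scalings, 39 stayed within their counting interval, 11 moved out of it and 2 changed sign, both of Adgre1, which was 0.01 by total counts and 0.04 by totals that leave out mitochondrial genes and the 100 most abundant ones. The scalings moved the median of all genes to between -0.01 and 0.08, from 0.02. Leaving out a replicate was not possible with 1 library per group. No paired analysis was possible because each group has 1 library. Vsig4, with 69 counts in the LPS library, has the widest interval of the set.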

Other observations

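The genome around 2 of the identity genes held other genes that were higher with LCC-12. Serpinb2 lies in a cluster of serpin genes on chromosome 1. Serpinb10, annotated as a polymorphic pseudogene in the reference strain, overlaps it on the same strand with 291 shared exon bases, so some reads could belong to either gene. It had 1381 counts with LPS+LCC-12 and 215 with LPS, 6.62-fold higher (log2 ratio 2.73, 2.52 to 2.94). Serpinb8, 54.5 kb from Serpinb2 beyond Serpinb10, had 2766 counts with LPS+LCC-12 and 1006 with LPS and was 2.84-fold higher. Serpinb7, 58.7 kb before Serpinb2, had 9 counts with LPS+LCC-12 and 0 with LPS. Serpinb6a, a relative elsewhere in the genome, was 2.81-fold higher with 4077 counts with LPS+LCC-12 and 1499 with LPS, whereas Serpinb1a and Serpinb9 had log2 ratios of 0.40 and -0.02.

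Of the protein-coding neighbours of Cd5l, Fcrls, an Fc receptor-like gene 94.1 kb away, had 954 counts with LPS+LCC-12 and 99 with LPS and was 9.90-fold higher. Fcrl1, a B cell gene 5.31 kb on the other side, had 344 counts with LPS+LCC-12 and 345 with LPS. The neighbours of the other identity genes with 50 or more counts were within 2-fold. They ranged from a log2 ratio of -0.72 for Vav1, next to Adgre1, to 0.90 for Snhg11, next to Lbp. Tpr, which overlaps Prg4 on the other strand by 204 exon bases, had 43240 counts with LPS+LCC-12 and 43666 with LPS, more than Prg4 itself, so Prg4 reads in that stretch are uncertain if counting ignored strand.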
